A study of Mus musculus with 11 samples.

Results

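The genes of the cytosolic ribosomal proteins were examined for peaks of 11 CUT&RUN libraries from 2 mouse tumour lines with the ZFTA-RELA fusion, tagged with HA. They were chosen by a rule on symbols that uses no measured value, but with earlier results of these data known. The rule takes protein-coding genes of mm10 whose symbols start with Rps or Rpl and a digit, together with Rplp0, Rplp1, Rplp2 and Rpsa. It leaves out the ribosomal protein kinases. The rule found 91 of 21631 protein-coding genes on chromosomes 1 to 19 and X, which leaves 21540 other genes as the background. Of the 91, 77 carry a plain symbol and 8 carry a further letter L, which marks paralogues such as Rpl22l1. The last 6 are Rpl31-ps12, Rpl34-ps1, Rpl37rt, Rps23rg1, Rps27rt and Rps19bp1. The symbol rule took in Rps19bp1, which encodes a partner of another protein and no ribosomal protein.

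In CUT&RUN, an antibody bound to its target in opened cells guides a nuclease that cuts the DNA nearby, and the short fragments set free are sequenced. Both lines, M00002 and M00001, are cultures from a tumour, each tied by the labels to 1 mouse, and both were grown untreated in neural basal medium with bFGF and EGF. From M00002 came HA, IgG, p65 (the protein encoded by Rela) and H3K27ac, the histone acetylation found at active promoters and enhancers, with the antibodies ac4729 and ac647. From M00001 came HA, IgG, the acetyltransferases Cbp and p300, and Rpb1, the main catalytic subunit of the polymerase that transcribes protein-coding genes, with the antibodies written S5 and S2. The HA libraries are described as HA-tagged CRfus1, which is taken here as the fusion in the series title. Both lines carry the fusion, and no line without it was analysed here. Each target has 1 library per line, so no value below has a replicate and no difference was tested. H3K27ac and p65 were profiled only in M00002, and Rpb1, Cbp and p300 only in M00001, so for these the target and the line cannot be told apart.

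A ribosome joins a small and a large subunit, and each is built from ribosomal RNA and a fixed set of proteins, the Rps set in the small subunit and the Rpl set in the large. The protein genes lie scattered over the genome, are mostly short, and are transcribed strongly in growing cells. Many of their messenger RNAs begin with a C followed by a run of pyrimidines, the terminal oligopyrimidine motif through which mTOR signalling controls their translation. RELA is the NF-kappaB subunit p65, and ZFTA-RELA is the main oncogenic fusion of supratentorial ependymoma. The fusion holds RELA sequence, and the labels do not state whether the p65 antibody also recognises it.

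RefSeq promoters on GRCm38.p6, the assembly behind mm10, were found for 70 of the 91 genes. The stretch from 200 bases before to 10 bases from the annotated start is shown 5′ to 3′ on the coding strand for 6 of them. The first 3 are Rpsa, Rps18 and Rpl11, which had HA in both lines and p65, and the last 3 are Rpl13, Rps25 and Rpl6, which had H3K27ac with both antibodies and no peak of HA or p65. Rpsa lies at chr9:120127566-120127775 (plus strand), Rps18 at chr17:33955656-33955865 (minus), Rpl11 at chr4:136053384-136053593 (minus), Rpl13 at chr8:123102150-123102359 (plus), Rps25 at chr9:44407514-44407723 (plus) and Rpl6 at chr5:121204301-121204510 (plus). Capitals mark matches on either strand to the ETS core CCGGAA, read as TTCCGG on the other strand, and to the NF-kappaB pattern, which is GGG, any 5 bases and CC, or its reverse complement. Overlapping matches run together.
Rpsa: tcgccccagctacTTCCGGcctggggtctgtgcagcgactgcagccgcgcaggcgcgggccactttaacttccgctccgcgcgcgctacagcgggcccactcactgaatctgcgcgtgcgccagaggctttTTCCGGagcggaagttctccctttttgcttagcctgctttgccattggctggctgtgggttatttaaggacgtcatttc
Rps18: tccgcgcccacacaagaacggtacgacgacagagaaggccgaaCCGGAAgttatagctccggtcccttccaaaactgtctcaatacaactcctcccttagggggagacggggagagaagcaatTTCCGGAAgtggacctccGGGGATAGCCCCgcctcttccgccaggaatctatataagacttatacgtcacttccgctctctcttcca
Rpl11: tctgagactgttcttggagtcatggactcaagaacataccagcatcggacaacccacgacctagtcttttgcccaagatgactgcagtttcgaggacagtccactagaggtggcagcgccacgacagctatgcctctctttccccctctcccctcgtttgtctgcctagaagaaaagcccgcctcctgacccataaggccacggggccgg
Rpl13: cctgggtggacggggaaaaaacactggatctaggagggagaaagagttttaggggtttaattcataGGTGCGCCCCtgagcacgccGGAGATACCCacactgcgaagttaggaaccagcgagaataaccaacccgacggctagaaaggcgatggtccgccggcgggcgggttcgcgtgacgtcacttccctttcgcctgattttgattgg
Rps25: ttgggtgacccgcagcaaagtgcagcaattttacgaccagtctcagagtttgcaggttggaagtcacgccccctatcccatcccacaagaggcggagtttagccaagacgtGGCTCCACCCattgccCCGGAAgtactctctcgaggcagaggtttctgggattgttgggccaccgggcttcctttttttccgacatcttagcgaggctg
Rpl6: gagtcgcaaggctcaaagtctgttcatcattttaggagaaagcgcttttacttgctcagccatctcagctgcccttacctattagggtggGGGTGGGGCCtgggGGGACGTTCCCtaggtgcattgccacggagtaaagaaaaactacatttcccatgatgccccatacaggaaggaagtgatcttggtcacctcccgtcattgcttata

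Rpsa holds 2 ETS matches in its window and Rps18 holds 3, together with 3 overlapping NF-kappaB matches. Rps25 holds 1 match of each kind, Rpl13 holds 2 NF-kappaB matches and Rpl6 holds 3. Rpl11 holds neither pattern in these 210 bases. The NF-kappaB pattern is thus present in all 3 promoters shown without HA or p65 and in 1 of the 3 shown with them. The HA summits of both lines and the p65 summit fell inside the printed stretch of Rpsa and of Rps18. In Rpl11 the p65 summit fell inside it and the HA summits did not. A match is a description of letters and no measured binding site.

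The lists hold between 1806 peaks (IgG of M00001) and 30680 (HA of M00002), and none gives read counts, so the sequencing depth is unknown and a longer list does not mean more occupancy. A gene was counted as having a target when any part of a peak fell no more than 1 kb from its start or its end. The fold enrichment of a peak is the authors' value, a ratio of signal to the local background in peak calling, and is compared here only by its percentile among the peaks of its own list. A peak between neighbouring genes counts for each, and 44 of the 91 (48.4%) had another protein-coding gene with an end within 2 kb. Of 8 neural progenitor markers, Hes1, Nes, Slc1a3, Sox9 and Vim had H3K27ac with ac4729, and Sox2, Olig2 and Fabp7 did not. Csf1r was the only 1 of 4 leukocyte markers with ac4729, and no endothelial (3), muscle (2) or liver (2) marker had it. The liver gene Apoa1 had a peak of S5 or S2.

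Larger shares of ribosomal protein genes than of other genes carried H3K27ac and polymerase. H3K27ac with ac4729 lay at 69 of 91 (75.8%), beside 32.2% of other genes, and with ac647 at 24 (26.4%), beside 13.1%. Rpb1 S5 lay at 54 (59.3%), beside 20.8%, and Rpb1 S2 at 73 (80.2%), beside 40.6%. Both H3K27ac antibodies gave a peak at 23 genes (25.3%), beside 12.1%, and at least 1 of S5 and S2 at 76 (83.5%), beside 42.4%. Only 11 of the 91 (12.1%) had no peak of any list, beside 46.7% of other genes.

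HA and p65 showed much smaller gaps from the background. HA lay at 31 genes (34.1%) in M00002, beside 25.3% of other genes, and at 9 (9.89%) in M00001, beside 10.2%. Both HA lists had a peak at 7 genes (7.69%), beside 9.01%. The p65 list had a peak at 16 (17.6%), beside 15.3%, and 13 of these also had HA of M00002 (14.3%, beside 13.4%). Cbp lay at 4 (4.40%), beside 3.52%, and p300 at 4 (4.40%), beside 6.67%. At least 1 of Cbp and p300 lay at 7 (7.69%), beside 8.81%. IgG of M00002 lay at 1 gene, Rps19bp1, with a fold of 3.34 (1.44% of other genes), and IgG of M00001 at none (0.422%).

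With only the 5000 peaks of highest fold in each list, HA of M00002 lay at 4 of 91 (4.40%), beside 6.69% of other genes, and p65 at 3 (3.30%), beside 6.55%. For both targets the ribosomal protein genes then lay below the background instead of above it. With peaks of −log10 q of at least 5, HA of M00002 stayed above it at 18 (19.8%, beside 13.4%), p65 lay below it at 3 (3.30%, beside 7.09%), and both H3K27ac antibodies together also lay below it at 3 (3.30%, beside 4.37%).

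**Figure D1:**
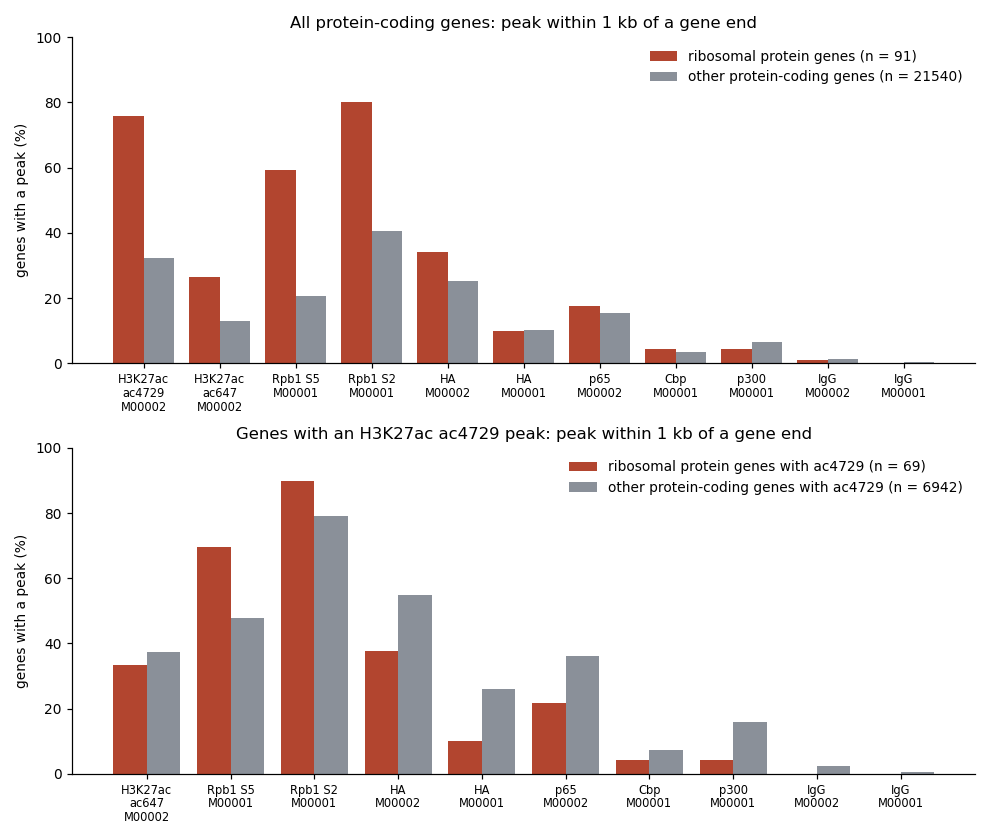
The height of each bar is the percentage of genes with a peak within 1 kb of a gene end in the library named below it, for ribosomal protein genes (red) and other protein-coding genes (grey). The upper panel takes all genes, and the red bars of ac4729 (75.8%), S5 (59.3%) and S2 (80.2%) stand well above the grey. The lower panel takes only genes with ac4729, and there the red bars of HA (37.7% in M00002), p65 (21.7%) and p300 (4.35%) lie below the grey. Each bar rests on 1 library.

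Among genes that were acetylated or carried polymerase, HA and p65 were less frequent at ribosomal protein genes than elsewhere. Of the 69 with ac4729, 26 (37.7%) had HA of M00002, beside 55.0% of 6942 other genes with ac4729. In the same set p65 lay at 15 (21.7%, beside 36.3%) and HA of M00001 at 7 (10.1%, beside 25.9%). The polymerase ran the other way, with S5 at 48 (69.6%, beside 47.8%) and S2 at 62 (89.9%, beside 79.1%). Cbp lay at 3 (4.35%, beside 7.33%), p300 at 3 (4.35%, beside 16.0%), HA of both lines at 5 (7.25%, beside 23.9%) and ac647 at 23 (33.3%, beside 37.5%).

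Of the 23 genes with both H3K27ac antibodies, 12 (52.2%) had HA of M00002, beside 71.0% of 2601 other such genes, 7 (30.4%) had p65, beside 52.9%, and 3 of the 23 had HA of M00001, beside 39.8%. In M00001, 8 of the 54 genes with S5 (14.8%) had HA of the same line, beside 30.5%, and 9 of the 73 with S2 (12.3%), beside 21.9%. The acetyltransferase p300 lay at 3 of the 54 with S5 (5.56%), beside 24.8%, and Cbp also at 3 (5.56%), beside 10.7%. HA of M00002 lay at 24 of the 54 (44.4%, beside 61.4%) and p65 at 13 (24.1%, beside 41.3%). Of the 73 with S2, 4 had p300 (5.48%, beside 14.9%) and 4 had Cbp (5.48%, beside 6.95%). HA of M00002 and p65 among ac4729 genes, and HA of M00001 among S5 and among S2 genes, stayed below the background in all 9 settings tried, among them gene windows of 250 bp and 5 kb, gene starts only, stricter peak thresholds and the removal of peaks that overlap IgG.

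Genes were then compared within classes of the fold of the active mark, since stronger marks went with more HA at other genes. Genes were placed in 4 equal classes by the fold of their ac4729 peak. From the lowest to the highest class, HA of M00002 lay at 46.7, 28.6, 35.3 and 39.1% of ribosomal protein genes and at 49.9, 52.2, 57.6 and 60.5% of other genes. At the shares of the other genes, 38.5 of the 69 would carry HA, against the 26 counted, and 25.5 would carry p65, against 15. In the lowest class p65 was at 33.3% of ribosomal protein genes and 31.6% of other genes, so there the order was the opposite. By classes of S5 fold, p300 lay at none of the ribosomal protein genes in the lower 3 classes and at 3 of 12 in the highest, beside 11.5, 17.2, 25.6 and 45.0% of other genes. The 54 genes with S5 would hold 13.5 with p300 at those shares, against the 3 counted, and 16.4 with HA of M00001, against 8. By classes of S2 fold the gaps were smaller: the 73 genes would hold 14.3 with HA of M00001, against 9, 9.31 with p300, against 4, and 4.51 with Cbp, against 4. In the third of these S2 classes HA of M00001 was at 5 of 20 ribosomal protein genes and 21.2% of other genes, and in the lowest and highest Cbp was also at the larger share of ribosomal protein genes, so there the order was the opposite. Classes hold 8 to 24 ribosomal protein genes, so each of these shares moves with a few genes. The highest classes also reached folds of 22.2 (ac4729), 41.4 (S5) and 31.5 (S2). Ribosomal protein genes reached only 10.1, 9.60 and 9.16. Fold was therefore not matched within the highest class, and the counts at the shares of other genes carry this limit.

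**Figure D2:**
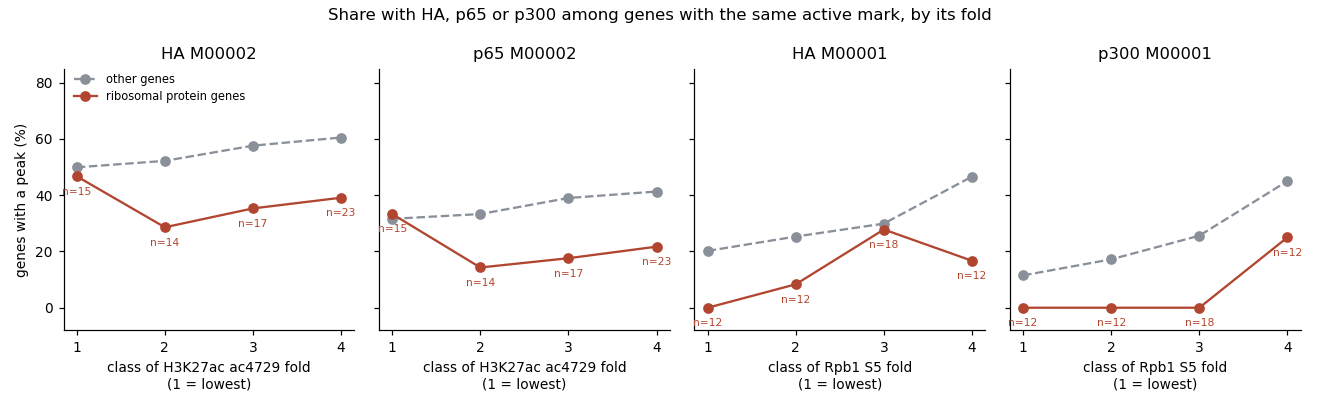
Each point is the percentage of genes with a peak of the target named above the panel, among genes grouped into 4 classes by the fold of ac4729 (left pair of panels) or S5 (right pair), for ribosomal protein genes (red, number of genes beside each point) and other genes (grey, dashed). The grey line climbs with the fold, to 60.5% for HA of M00002 and 45.0% for p300, while the red points lie below it except for p65 in the lowest class.

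In M00002 the most frequent pattern was ac4729 without any other target of that line, at 31 of 91 genes (34.1%), beside 10.4% of other genes. HA without H3K27ac or p65 lay at 5 (5.49%), beside 4.70%, and all of ac4729, ac647, HA and p65 at 6 (6.59%), beside 6.04%. In M00001, S5 and S2 without HA lay at 43 genes (47.3%, beside 12.9%), and S5 or S2 without HA at 67 (73.6%, beside 33.2% of other genes). Across both lines, 45 genes (49.5%) had all of ac4729, S5 and S2, beside 14.6% of other genes. Of these 45, 22 (48.9%) had neither HA in either line nor p65, beside 27.4% of 3155 other genes with the same 3 marks.

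Where present, ac4729 was strong at these genes: the strongest peak per gene had a median percentile of 82.4, beside 71.6 at other genes with a peak. The medians for S5 were 67.9 and 63.5. They lay lower at ribosomal protein genes for 5 lists, at 71.3 and 75.5 for S2, 66.4 and 67.5 for HA of M00002, 58.7 and 63.4 for HA of M00001, 53.8 and 61.9 for p65, and 45.3 and 56.9 for ac647. For Cbp and p300, with 4 genes each, they lay higher, at 56.3 and 47.8 and at 63.7 and 54.5. The 2 H3K27ac antibodies thus differed in order. The ac4729 folds ran from 2.85 to 10.1, the last at Rpl32, with a median of 5.13. The median number of lists with a peak was 3.00 per ribosomal protein gene and 1.00 per other gene, and the most was 7, at Rpl11 and Rps29.

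**Figure D3:**
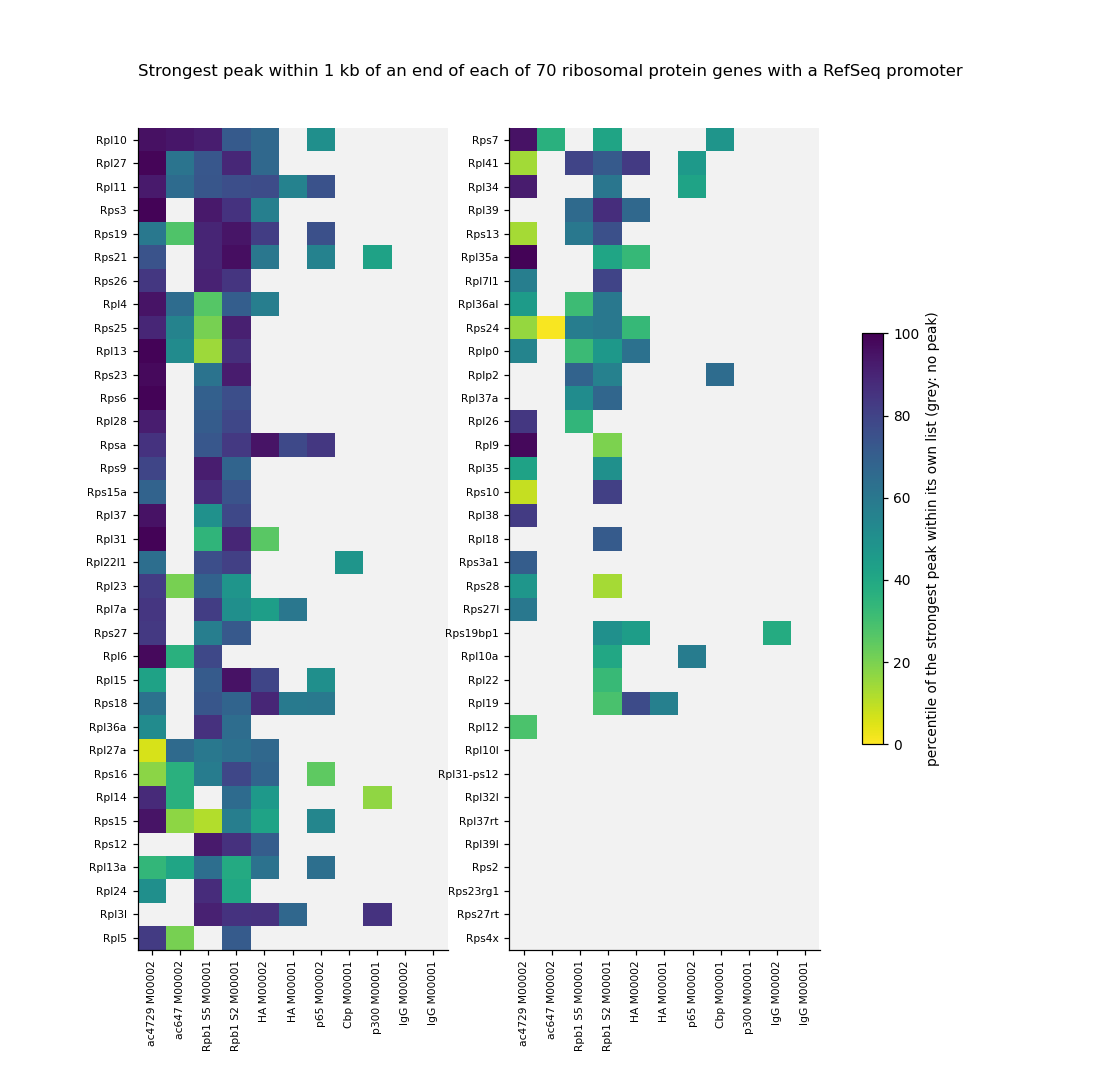
Each row is 1 of the 70 ribosomal protein genes with a RefSeq promoter and each column a library, and the colour gives the percentile of the gene's strongest peak among all peaks of that library, from 0 (yellow) to 100 (dark), with grey for no peak. Rows are ordered by the mean percentile over ac4729, ac647, S5 and S2. Colour fills most of the ac4729 (51 of these genes), S5 (42) and S2 (55) columns and thins out in those of HA (26 in M00002), p65 (13), Cbp (3) and p300 (3), and the last 9 rows are empty.

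The strongest marks sat at proteins of both subunits. Of the 12 genes with the highest mean percentile over the 4 active marks, Rps29 was first. It is described separately below, because its HA and ac647 peaks lie on another gene. Rpl10, a protein of the large subunit near the catalytic centre that joins late in assembly, followed with folds of 6.69 (ac4729), 7.63 (ac647), 6.92 (S5) and 4.91 (S2). It also had HA of M00002 at 5.98 and p65 at 4.79, and no HA in M00001. Rpl27 had 8.15 with ac4729, 4.61 with ac647, 5.01 with S5, 6.56 with S2 and 5.98 with HA of M00002, without p65. Rpl36 had 6.94, 5.52, 4.55 and 5.24 for ac4729, ac647, S5 and S2, with p65 at 4.41. It had HA of M00001 at 3.32 (−log10 q of 0.663), the lowest HA fold of that line at these genes. Its S5 and S2 peaks of 4.55 and 5.24 lay nearer to Micos13, at the other end of Rpl36 from its H3K27ac, and those beside the H3K27ac had folds of 3.71 and 3.44.

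Rps3, which lines the messenger RNA entry channel, had 9.40 with ac4729, 7.18 with S5, 6.09 with S2 and 5.15 with HA of M00002. Rps26 and Rps23, which lie close to the messenger RNA path, had ac4729 (5.24 and 7.31), S5 (6.59 and 4.54) and S2 (5.97 and 7.22) and no HA or p65. Rpl4, whose loop lines the exit tunnel, had 6.46 with ac4729, 4.66 with ac647, 3.43 with S5, 4.81 with S2 and 5.19 with HA of M00002. These H3K27ac summits lay at 50 and -22 bp from its start, but the S5 summit lay at 5432 bp. The HA and S2 summits lay nearer to Snapc5 (179 and 153 bp) than to Rpl4 (556 and 888 bp). Weaker peaks of ac4729 (4.51) and ac647 (4.21) also lay at that far end. Rps6, the substrate of S6 kinase, was outside these 12 but had one of the strongest ac4729 peaks, at 9.39 (percentile 99.2), with S5 at 4.79, S2 at 5.21 and no other target; it was picked after its values were seen.

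Rps19, mutated in Diamond-Blackfan anaemia, had S2 at 7.74 and S5 at 6.42, and ac4729 at 4.27 and ac647 at 3.64. Its HA of M00002 was at 8.72 and its p65 at 7.34, the second highest p65 among these genes. Rps21 had S2 at 8.35, S5 at 6.43 and ac4729 at 4.73, together with HA of M00002 (5.28), p65 (5.25) and p300 (3.69). Both genes had no HA peak in M00001. Across the 48 genes with ac4729 and S5, Spearman's rho between the folds was -0.07, and across the 62 with ac4729 and S2 it was 0.27. At other genes it was 0.08 (3320 genes) and 0.125 (5489 genes), so it was low there too. These are descriptions across genes that share the same libraries, and the 2 targets come from different lines.

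The proteins of the stalk, which recruits the translation GTPases, and Rpsa were taken by name. Rplp0 had ac4729 at 4.10, S5 at 3.69, S2 at 3.75 and HA of M00002 at 5.64. Rplp1 had 4.71, 4.84 and 5.67 for ac4729, S5 and S2, and 6.40 for HA of M00002. Rplp2 had S5 (4.73), S2 (4.13) and Cbp (3.77) and no H3K27ac or HA, and its peaks of these 3 lay closer to another gene's end than to its own. None of the 3 had p65 or HA in M00001.

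The subunits were compared among the plain symbols. H3K27ac with ac4729 lay at 37 of 46 large-subunit genes (80.4%) and 28 of 31 small-subunit genes (90.3%). S5 lay at 30 (65.2%) and 21 (67.7%), S2 at 40 (87.0%) and 28 (90.3%), HA of M00002 at 19 (41.3%) and 10 (32.3%), and p65 at 9 (19.6%) and 7 (22.6%). These differences were not tested.

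Rpsa, the small-subunit protein also known as the laminin receptor, had the highest HA of M00002 and the highest p65 of all 91 genes. Its HA folds were 14.6 in M00002 (percentile 94.6) and 6.66 in M00001 (percentile 78.0), and its p65 fold was 8.87. It had ac4729 at 5.37, S5 at 5.00 and S2 at 5.83, and no ac647, Cbp, p300 or IgG. From the start, the HA summits lay at -87 bp in M00002 and -154 bp in M00001, inside the stretch printed above, and the p65 summit at -150 bp. A further HA peak of 10.4 and a p65 peak of 8.79 lay just past the 3′ end of the gene.

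Rps18, a protein of the small-subunit head, had HA at 11.2 in M00002 and 4.95 in M00001 and p65 at 5.56. Its ac4729 was 4.35, its S5 5.03 and its S2 4.70. The HA summits lay at -54 bp from the start in M00002 and -57 bp in M00001. An end of Vps52 lies right beside it, and the p65 summit was 4 bp from the end of Vps52 and 110 bp from that of Rps18.

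Rpl11, which joins the 5S RNA particle and binds Mdm2, had peaks in 7 lists: HA at 7.56 in M00002 and 4.68 in M00001, p65 at 7.19, ac4729 at 6.09, ac647 at 4.67, S5 at 5.04 and S2 at 5.21. The HA peak of 7.56 lay past the 3′ end of the gene, and a second of 5.98 lay at its start, with a summit 10 bases into the gene. The HA summit of M00001 was 219 bases into the gene, and it did not overlap either HA peak of M00002.

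Among the other genes with HA in both lines, Rpl7a had 4.32 in M00002 and 4.97 in M00001, and its M00001 summit lay on the end of Med22. Rpl19 had 7.65 and 4.77, but both summits lay within 10 bp of the end of Cacnb1 and over 1000 bp from Rpl19. Rpl3l, the paralogue of Rpl3 known from muscle, had 9.81 and 5.47, with S5 at 6.67, S2 at 6.08 and p300 at 5.20, and no H3K27ac. Its HA summits lay 64 and 60 bp from Msrb1 and 386 and 390 bp from Rpl3l, so these peaks were nearer to the neighbour. Its S5, S2 and p300 summits also lay 115, 112 and 7 bp from Msrb1 and 335, 338 and 443 bp from Rpl3l. HA peaks of the 2 lines overlapped by at least 1 bp at 6 of the 7 genes, all but Rpl11. Among other genes, 1806 had an HA peak of M00002 that overlapped one of M00001, and 1941 had HA in both lines.

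For HA of M00002, the strongest peak of 6 of 31 genes was nearer to another gene's end: Rpl13a, Rpl15, Rpl19, Rpl3l, Rpl4 and Rpl7. For HA of M00001 it was 3 of 9 (Rpl19, Rpl3l and Rpl7a) and for p65 2 of 16 (Rpl15 and Rps18). The same held for 3 of 69 with ac4729, 8 of 54 with S5 and 13 of 73 with S2.

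After Rpsa, Rps19 and Rpl11, high p65 folds were at Rpl13a (5.94), Rps18 (5.56), Rpl10a (5.43), Rps21 (5.25), Rps15 (5.11) and Rpl10 (4.79). Rpl13a had an HA peak of M00002 at 5.41 with its summit at -113 bp from its start, and a second of 5.59 nearer to another gene. Rpl10a had p65 and S2 (3.58) and no other target, and Rpl34 and Rpl36 were the other p65 genes without HA of M00002. The p65 folds ran from 3.66 to 8.87, a median of 5.09. Across the 13 genes with both, Spearman's rho between HA of M00002 and p65 folds was 0.19, and across 2886 other genes it was 0.77. Both lists come from the same line and carry the same mark of 120 bp in their names.

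At the level of sites, 38 HA peaks of M00002 lay at ribosomal protein genes, and 16 (42.1%) overlapped a p65 peak, beside 46.7% at other genes. Of the 38, 6 (15.8%) overlapped HA of M00001, beside 30.7%, and 23 (60.5%) overlapped ac4729, beside 53.0%. Of 20 p65 peaks, 16 overlapped HA of M00002, and at other genes 82.0% did. Only 1 (5.00%) overlapped ac647, beside 26.8%.

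A group of 10 genes of the 91 had H3K27ac with both antibodies and neither HA nor p65 in M00002, beside 3.16% of other genes. Rps29 is among them by this count, and the other 9 also had no HA in M00001. Rps14, whose human counterpart is lost in the 5q deletion syndrome with anaemia, had 6.71 with ac4729, 5.06 with ac647 and 3.91 with S2. Rpl13 had one of the highest ac4729 peaks, at percentile 99.1, with ac647 at 4.24, S5 at 3.34 and S2 at 6.24. Rps25, needed for initiation at some internal ribosome entry sites, had 5.66, 4.32, 3.37 and 6.94 for ac4729, ac647, S5 and S2. All 4 summits lay nearer to an end of Trappc4 (28 to 124 bp) than to Rps25 (138 to 290 bp).

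Rpl6 had 7.36 with ac4729, 3.85 with ac647 and 5.30 with S5, and no S2. Rpl32 had the highest ac4729 of all 91 genes, 10.1, with ac647 at 3.66, S5 at 3.44 and S2 at 4.71. Rpl5 and Rpl23, which like Rpl11 bind Mdm2, had ac4729 at 5.16 and 5.13, ac647 at 3.47 in both, and S2 at 4.88 and 3.80, and Rpl23 also had S5 at 4.76. Rps7 had 6.54 and 3.85 with the H3K27ac antibodies, S2 at 3.63 and Cbp at 3.43. Rps20 had the weakest peaks of the group, at 3.50 (ac4729), 3.08 (ac647) and 2.97 (S2). Its ac4729 peak (chr4:3834784-3835097) and ac647 peak (chr4:3832421-3832715) lay at different ends of the gene. The ac647 peak had a −log10 q of 0.921. Of these 3 genes, Rpl11 had HA in both lines and p65, while Rpl5 and Rpl23 had neither. Genes whose products bind Mdm2 were not examined as a set.

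The coactivators Cbp and p300 were rare. Cbp lay at Rps29 (9.53), Rplp2 (3.77), Rpl22l1 (3.43) and Rps7 (3.43), and p300 at Rps29 (6.61), Rpl3l (5.20), Rps21 (3.69) and Rpl14 (3.32). Apart from Rps29, no gene had both. The median fold of Cbp over all its peaks was 3.43, so the peaks at Rpl22l1 and Rps7 were at the middle of that list.

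Rps29 stood apart from the rest. It had the highest fold of the 91 genes for HA of M00001 (20.2, percentile 98.9), ac647 (29.2), Cbp (9.53), p300 (6.61), S5 (9.60) and S2 (9.16), with ac4729 at 5.64. It had no HA of M00002, no p65 and no IgG of either line. The HA peak spanned chr12:69159304-69159670 and the ac647 peak chr12:69159299-69159732, while Rps29 ends at 69159186. Both peaks lie on Rn7s1 (chr12:69159295-69159593), a gene for the RNA of the signal recognition particle, which has many near-identical copies in the genome. The sources used here do not say how reads that map to several places were handled, so these values are uncertain. The ac4729 peak, at chr12:69158477-69159060, lay inside Rps29 itself. The 9 counts recomputed without Rps29 stayed within 1.5 times their values.

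The paralogues with a further L had fewer peaks than the plain symbols. Of the 8, 4 had ac4729, 4 had S2 and 3 had S5, while of the 77 plain symbols 65 (84.4%) had ac4729, 51 (66.2%) S5 and 68 (88.3%) S2. The S5 and S2 peaks of Rpl3l and Rpl36al, counted here, lay nearer to an end of a neighbouring gene. HA of M00002 lay at 29 plain symbols (37.7%) and p65 at 16 (20.8%). Rpl22l1 had ac4729 at 4.37, S5 at 5.11, S2 at 5.60 and Cbp at 3.43, whereas its parent Rpl22 had only S2, at 3.37. Rps27l, known as a p53 target, had only ac4729 (4.27) at the ends of its annotated span, but its RefSeq start lies 1462 bp inside that span, and S5 and S2 summits lay at -251 and -155 bp from it. Its parent Rps27 had ac4729 (5.19), S5 (4.28) and S2 (4.95).

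Rpl36al had ac4729 at 3.88, S5 at 3.67 and S2 at 4.24, beside 4.03, 5.90 and 4.48 at Rpl36a. The S5 and S2 summits of Rpl36al lay 40 and 33 bp from Mgat2 and 51 and 124 bp from Rpl36al. Rpl7l1 had ac4729 at 4.18 and S2 at 5.49, and Rpl7 had 4.62 and 4.21 with ac647 at 4.22 and HA of M00002 at 3.60. Rpl3l had no H3K27ac, and its parent Rpl3 had ac4729 at 2.87, S5 at 4.34 and S2 at 3.04 and no HA. Rpl10l and Rpl39l, known from testis, and Rpl32l had no peak at all, while Rpl39 had S5 at 4.64, S2 at 6.32 and HA of M00002 at 5.98. Reads of near-identical copies may be split or lost between a gene and its retrogenes, so the values of paralogues are uncertain.

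The 11 genes without a peak at either end were Rpl10l, Rpl17, Rpl31-ps12, Rpl32l, Rpl34-ps1, Rpl37rt, Rpl39l, Rps2, Rps23rg1, Rps27rt and Rps4x. Only 3 of them, Rpl17, Rps2 and Rps4x, carry plain symbols. The empty count for Rps2 comes from its annotated span, whose ends lie over 1 kb from the peaks. Its RefSeq start is 1942 bp inside that span and carried peaks with summits at -75 bp (HA of M00002), -43 bp (p65), 104 bp (ac4729), -83 bp (S5) and -112 bp (S2). Their folds were 4.48 (HA of M00002), 3.88 (p65), 4.80 (ac4729), 4.60 (S5) and 3.82 (S2). Rpl17 had ac4729 (4.57), ac647 (3.85) and S5 (3.96) inside it. Rps4x, on chromosome X, had none there either. RefSeq starts inside the span also left uncounted ac4729 and HA of M00001 at Rpl18 (start 2604 bp inside, an HA summit at -332 bp) and both H3K27ac antibodies at Rpl19 (start 4707 bp inside, summits at 178 and 179 bp).

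Relative to the annotated start of the 70 genes with a promoter, median summits of HA, p65 and polymerase lay upstream, as at other genes. That of ac4729 lay downstream. The median HA summit of M00002 was -81.5 bp (n = 26 summits), that of p65 -87.0 bp (15), of S5 -57.0 bp (42) and of S2 -68.5 bp (54). At other genes these medians were -67.0, -78.0, -59.5 and -58.0 bp. The median ac4729 summit was 145 bp into the gene (61 summits), beside 95.0 bp at other genes. With ac647 it was -22.0 bp (19 summits), beside 23.0 bp, and 52.6% of its summits lay upstream. HA summits were close to the start at 92.3% (within 250 bp) and p65 summits at 93.3%, beside 63.0% and 62.9% at other genes. Only 5 HA summits of M00001 could be placed, with a median of -154 bp. These shares rest on genes of different size: the ribosomal protein genes have a median length of 3175 bp, and other genes 17442 bp.

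**Figure D4:**
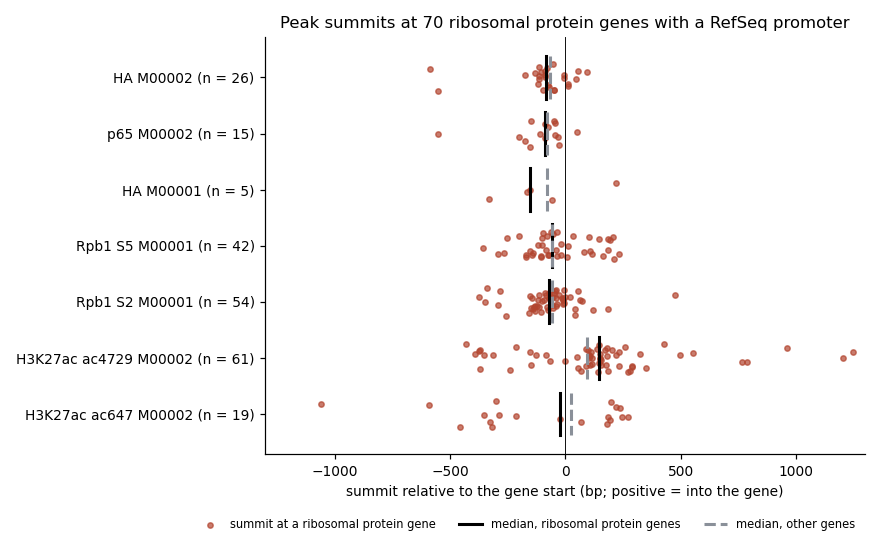
Each point is a peak summit at 1 of the 70 ribosomal protein genes with a RefSeq promoter, placed by its distance in bp from the gene start (positive into the gene), with the black bar at their median and the grey dashed bar at the median of other genes. HA of M00002 (median -81.5 bp) and p65 (-87.0 bp) crowd just before the start and ac4729 (145 bp) after it.

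Several sequence patterns were commoner in these promoters (250 bases before to 50 after the start, both strands) than in 17204 promoters of other genes. The ETS core CCGGAA was in 33 of 70 (47.1%, beside 19.2%), the YY1 motif AAGATGGC in 6 (8.57%, beside 3.21%) and the GC box GGGCGG in 40 (57.1%, beside 46.8%). The TATA box TATAAA was in 9 (12.9%, beside 13.4%) and the E-box CACGTG in 5 (7.14%, beside 8.01%). The NF-kappaB pattern, whose loose letters match by base composition alone in many promoters, was in 41 (58.6%, beside 57.0%). Median GC content was 57.0% and 56.3%.

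By HA of M00002, the NF-kappaB pattern was in 18 of 26 promoters with HA (69.2%) and 23 of 44 without (52.3%). By p65 the order was the opposite, with 7 of 13 (53.8%) and 59.6% of 57. ETS was in 14 of 26 with HA (53.8%) and 19 of 44 without (43.2%). The GC box was in 65.4% with HA and 52.3% without, and in 10 of 13 with p65 (76.9%) and 52.6% without. The TATA box ran the other way, in 7.69% with HA and 15.9% without, and in 0 of 13 with p65 and 15.8% without. These splits rest on few promoters and were not tested. The start itself followed the terminal oligopyrimidine pattern more often than elsewhere. A C was the first base in 24 of 70 (34.3%, beside 13.8%) and was followed by at least 3 pyrimidines in 14 (20.0%, beside 3.14%). Within 10 bases of the annotated start, a C with at least 4 further pyrimidines was found at 36 (51.4%, beside 26.0%).

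Introns of ribosomal protein genes often house small nucleolar RNAs, which guide modification of ribosomal RNA. Of the 91 genes, 30 (33.0%) held an annotated snoRNA, beside 1.59% of other genes. Those 30 had ac647 at 40.0% and S5 at 73.3%, beside 19.7% and 52.5% of the 61 without. HA of M00002 lay at 40.0% and 31.1%. The median lengths of the 2 sets were 3179 and 3164 bp. Other genes with a snoRNA also had larger shares than other genes without one in each of these lists. S5 lay there at 31.2% and 20.6%, and HA of M00002 at 29.2% and 25.2%. The order was therefore not particular to ribosomal protein genes. These other genes differed in length, with medians of 71942 bp with a snoRNA and 17161 bp without.

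Related lists differed among themselves in their shares of HA and p65. Among 32 translation factors with ac4729 (of 36 listed), 71.9% had HA of M00002, 50.0% p65 and 37.5% HA of M00001, beside 37.7, 21.7 and 10.1% of the ribosomal protein genes with ac4729. Eef1g had HA at 16.3 and 7.52 in M00002 and M00001 and p65 at 11.5, Eif3d had 16.7, 11.2 and 12.1, and Eif4g2 had 10.6, 6.45 and 9.04. The HA folds of Eef1g and Eif3d in M00002, and the p65 folds of all 3, exceeded those of Rpsa. Ribosome assembly genes with ac4729 (14 of 23) had HA of M00002 at 64.3%, p65 at 42.9% and HA of M00001 at 21.4%. Of the genes of mTOR control, 10 of 12 had ac4729, and of these 7 had HA of M00002, 7 had p65 and 3 had HA of M00001.

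Mitochondrial ribosomal protein genes with ac4729 (42 of 78) had HA of M00002 at 42.9%, p65 at 26.2% and HA of M00001 at 9.52%. Proteasome genes (33 of 40) had 36.4, 15.2 and 3.03%. The shares of the cytosolic ribosomal protein genes were therefore nearest to those of the proteasome and the mitochondrial ribosome and lower than those of the translation factors in all 3 lists. These differences between lists were not tested. Fau and Rack1, ribosomal components outside the symbol rule, both had HA of M00002 (4.89 and 3.74), and Fau also had IgG of M00002 at 5.33.

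**Figure D5:**
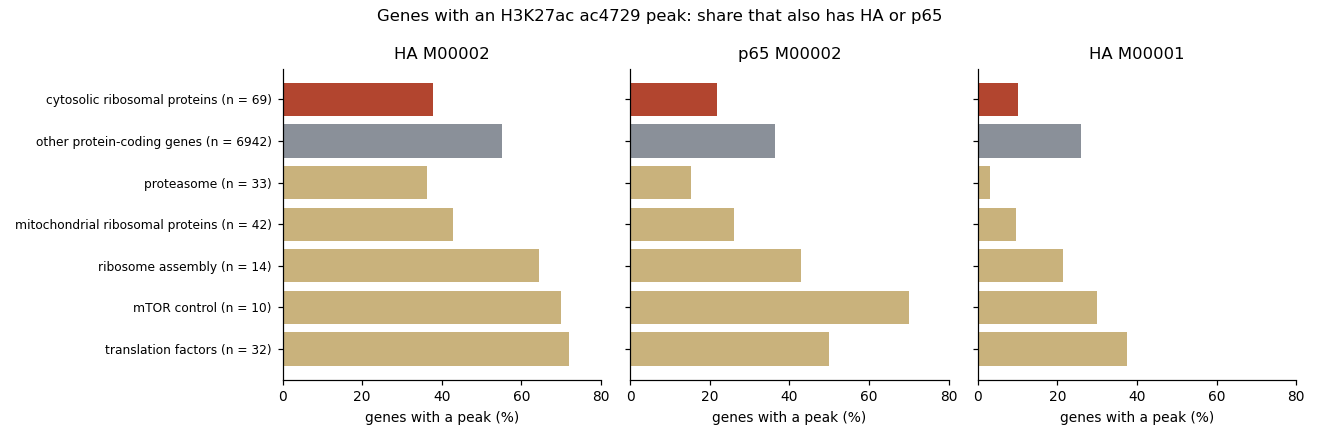
Each bar is the percentage of genes with an H3K27ac ac4729 peak that also have a peak of the target named above the panel, for cytosolic ribosomal protein genes (red), other genes (grey) and 5 related lists (tan), with the number of genes in brackets. The red bars (37.7, 21.7 and 10.1%) lie near the proteasome and mitochondrial ribosomal proteins, and the translation factors (71.9, 50.0 and 37.5%) lie above the grey.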

How the data were processed

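Each of the 11 libraries has its own deposited peak list, so calling was done sample by sample. The submitters' processing notes name mm10 as the build, and Trim Galore, FastQC, MACS2, deepTools and Bowtie2 2.3.5.1 as tools, without settings. In the column order that MACS2 uses, each deposited list holds a score, the fold enrichment (a ratio), the −log10 of the p-value, the −log10 of the q-value and the summit's distance from the peak start. The smallest −log10 p was 3.00. The calling control and thresholds are not given in the sources used here. A mark of 120 bp stands in the names of the HA and p65 lists of M00002, and a code, 031720, in the titles of Cbp, p300, S2 and S5, both without a stated meaning.

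Peaks on chromosomes 1 to 19 and X were joined to the ends of protein-coding genes of GRCm38.p6 with Python 3.11.15, pandas 2.3.3, NumPy 2.4.6 and SciPy 1.17.1; other sequences held 214 to 1113 peaks per list. Peaks overlap from 1 bp on. Strand came from the RefSeq promoter table. The counting was tested on simulated peaks. The members and lists were chosen with earlier results of these data known. Named genes were the up to 12 highest by mean percentile of the active marks, up to 10 each by HA in both lines and by p65, up to 12 with H3K27ac alone, those with Cbp and p300, IgG or no peak, the paralogues with their parents, the stalk proteins, Rpsa and Rps29, Fau, Rack1 and 3 translation factors. A few genes that the rule takes in are not reported here. With 1 library per target and line, no test was made. Alternatives were other windows, thresholds, gene sets and backgrounds.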

Additional observations from a re-analysis of the deposited data

How the results depend on the processing

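Of 110 counts of ribosomal protein genes recomputed under another setting, 90 stayed within 1.5 times the reported count and 20 did not. With a window of 5 kb, both H3K27ac antibodies lay at 36 genes (39.6%, other genes 19.7%) and p65 at 25 (27.5%, beside 25.1%). HA of M00001 lay at 15 (16.5%, beside 16.5%) and HA of both lines at 12 (13.2%, beside 14.5%). At gene starts only (70 genes), HA of M00001 lay at 5 (7.14%, beside 10.1%) and HA of both lines at 4 (5.71%, beside 8.98%). Fewer genes were counted there. With −log10 q of at least 5, both H3K27ac antibodies lay at 3 (3.30%, beside 4.37%) and S5 at 18 (19.8%, beside 7.29%). HA lay at 18 in M00002 (19.8%, beside 13.4%), 2 in M00001 (2.20%, beside 4.40%) and 1 in both lines (1.10%, beside 4.13%). At this threshold p65 lay at 3 (3.30%, beside 7.09%), and H3K27ac of both antibodies without HA or p65 at 2 (2.20%, beside 1.60%). With the 5000 peaks of highest fold, both H3K27ac antibodies lay at 4 (4.40%, beside 2.83%) and S2 at 23 (25.3%, beside 18.9%). HA of M00002 lay at 4 (4.40%, beside 6.69%), HA of both lines at 3 (3.30%, beside 4.50%) and p65 at 3 (3.30%, beside 6.55%). H3K27ac of both antibodies without HA or p65 lay at 4 (4.40%, beside 1.53%). S5 or S2 without HA of M00001 lay at 39 (42.9%, beside 17.5%). These settings keep fewer or more peaks by construction. The windows of 250 bp, −log10 q of at least 2, removal of peaks that overlap IgG, summits inside the window, and the genes without a further L changed no count by over 1.5 times.

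Against other backgrounds, 6 differences between ribosomal protein genes and other genes changed sign. With both restricted to genes with both H3K27ac antibodies, the difference was -18.9 percentage points for HA of M00002 and -22.4 for p65. With genes no longer than the longest ribosomal protein gene, it was 0.188 for HA of M00001. With both restricted to genes with ac4729, it was -4.13 for both H3K27ac antibodies, -17.3 for HA of M00002 and -14.5 for p65. That background, the plain symbols, the whole gene as window, the counts without Rps29, the 4 classes of fold and the overlap of HA sites without IgG were chosen after seeing the data. No paired analysis was possible because each target has 1 library per line and no result comes from a test. The lists hold no read counts, so a gene without a peak may lie below what its library could detect.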
